A study of Mus musculus with 22 samples.

Results

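The genes of the collagen chains and the laminin chains were followed through mouse embryonic stem (mES) cells and 3 kinds of culture grown from them. A gene was a member if its symbol in the authors' tables had the form Col, a number, a and a number, or Lam, a letter a, b or c, and a number. This took 55 of 55141 genes, 44 collagen and 11 laminin genes. They were split by the matrix their products build. The basement membrane class holds 19 genes (the 6 Col4 genes, Col15a1, Col18a1 and the laminins), the fibrillar class 11 (Col1a1, Col1a2, Col2a1, Col3a1, the 3 Col5 and both Col11 genes, Col24a1 and Col27a1) and the remaining class 25.

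RNA was sequenced from 22 samples in 10 groups, each with 2 libraries except the endoderm groups, which have 3. Wild-type (wt) cells and cells whose label is Hox-/- were compared, and the title of the series describes the latter as lacking all Hox function. Stem cells of both genotypes were kept in 100 ng/ml LIF with 3 µM CHIR99021, an inhibitor of the kinase GSK-3, and 1 µM PD0325901, an inhibitor of MEK. For endoderm, both genotypes received 100 ng/ml Activin A with 3 µM CHIR99021 after 24 h and again at 72 h, and were collected at 120 h. Gastruloids, aggregates of stem cells that form parts of an embryo-like body plan, were collected at 96 h and 120 h. Those treated with Activin A were made from both genotypes and those treated with Chiron from wt cells alone, and the labels give no dose for either. Endoderm and gastruloid cultures are labelled as mixed cells, so fewer cells of a type and less RNA per cell cannot be told apart. The labels name no clone, so the Hox-/- genotype and the line that carries it cannot be told apart. They also do not say that libraries of a group came from separate cultures, and the p-values then measure only the spread between these libraries.

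Basement membranes are thin sheets under epithelia, built from a laminin network and a collagen IV network. A laminin is a trimer of an alpha, a beta and a gamma chain, and Lama1, Lama5, Lamb1 and Lamc1 make the laminins of the early embryo. Collagen IV is mostly a trimer of the Col4a1 and Col4a2 products, and parietal endoderm is known for making both networks in large amounts. Fibrillar collagens form the fibres of interstitial matrix: types I and III in mesenchyme, type II in cartilage and around the notochord, and types V and XI inside the fibres of the others.

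The collagen IV genes lie head to head in pairs, each pair with its starts close together on opposite strands. On mm10, Col4a1 (ENSMUSG00000031502) runs on the minus strand of chromosome 8 from 11198423 to 11312826 and Col4a2 (ENSMUSG00000031503) on the plus strand from 11312805 to 11449287. Their annotated ends overlap by 22 bases, and without a stated strand setting in the counting, reads from that overlap cannot be assigned. On chromosome X the starts of Col4a5 (plus strand, 141475385) and Col4a6 (minus strand, 141474076) are 1309 bases apart. The sequences upstream of that pair are shown because the pair is compared in every group, and that of Col3a1 because its level ran from the floor in mES cells to 74.4 CPM in endoderm (CPM is a count scaled to a common library total). They come from RefSeq promoters on GRCm38.p6, which held 40 of the 55 members, and stop before the first annotated base of the gene. Each promoter was searched on both strands for 3 motifs. They were TATAAA (the TATA box), CCAAT (the CAAT box) and the GC box GGGCGG. Matches did not overlap here, and capitals mark them.
Col4a5, chrX:141475169-141475384, plus strand: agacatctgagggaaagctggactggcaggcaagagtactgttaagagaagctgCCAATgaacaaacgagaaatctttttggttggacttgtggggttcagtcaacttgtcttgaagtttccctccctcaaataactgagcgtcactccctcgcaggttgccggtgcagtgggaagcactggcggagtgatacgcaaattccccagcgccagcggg
Col4a6, chrX:141474077-141474326, minus strand: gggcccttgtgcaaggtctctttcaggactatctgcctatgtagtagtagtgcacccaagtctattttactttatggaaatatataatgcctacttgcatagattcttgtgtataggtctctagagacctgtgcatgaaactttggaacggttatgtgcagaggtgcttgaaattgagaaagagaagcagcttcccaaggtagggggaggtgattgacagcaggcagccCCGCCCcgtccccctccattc
Col3a1, chr1:45311288-45311537, plus strand: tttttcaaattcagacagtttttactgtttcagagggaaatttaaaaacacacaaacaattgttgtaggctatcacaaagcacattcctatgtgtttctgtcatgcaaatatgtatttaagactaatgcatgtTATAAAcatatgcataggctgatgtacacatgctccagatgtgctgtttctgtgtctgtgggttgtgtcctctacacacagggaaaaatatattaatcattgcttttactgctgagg
The Col4a5 sequence held 1 CCAAT, which 30.5% of 32851 RefSeq promoters hold over the same 216 bases. The Col4a6 sequence held 1 GGGCGG on its opposite strand, found in 32.7% of promoters over 250 bases. The Col3a1 sequence held 1 TATAAA, found in 12.4%. The matches describe letters in these windows and identify no bound factor.

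The libraries held between 9.11 and 28.8 M (mega) counts, and gastruloids of 120 h (up to 11.9 M) were shallower than those of 96 h (at least 14.95 M). A library with 3 counts or fewer for a gene is at the floor, which lies between 0.104 and 0.329 CPM. The 39 Hox genes summed to 30.4 to 35.7 CPM in wt mES cells and 0.448 to 1.34 in Hox-/- ones. In endoderm the sums were 828.5 to 876.7 and 22.5 to 28.6 CPM. In Activin A gastruloids they were 624.8 to 660.5 and 102.3 to 103.8 CPM at 96 h, and 1167 to 1190 and 63.8 to 69.5 CPM at 120 h. Definitive endoderm markers summed to 1015 to 1040 CPM in wt endoderm and 53.0 to 57.6 CPM in wt mES cells. In Chiron gastruloids they summed to 62.9 to 130.9 CPM. In wt endoderm the keratin genes Krt8 and Krt18 had the means 295.4 and 241.1 CPM, and Sox17 and Foxa2 24.5 and 18.6 CPM. Hhex was lower there than in wt mES cells (2.99 against 8.19 CPM). A gene is called here when the p of edgeR's quasi-likelihood test, Benjamini-Hochberg adjusted over all genes tested, is under 0.05.

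Of the 55 members, 49 exceeded 1 CPM in at least 1 library. The 6 that did not were Col4a3, Col4a4, Col6a6, Col10a1, Col19a1 and Col28a1, and Col10a1, which marks hypertrophic cartilage, had no count in any library. Members at the floor in every library of a group numbered 18 in wt and 22 in Hox-/- mES cells, 5 and 7 in endoderm, 7 in either genotype of Activin A gastruloids at 96 h and 10 at 120 h. In Chiron gastruloids 4 were at the floor at 96 h and 14 at 120 h.

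**Figure D1:**
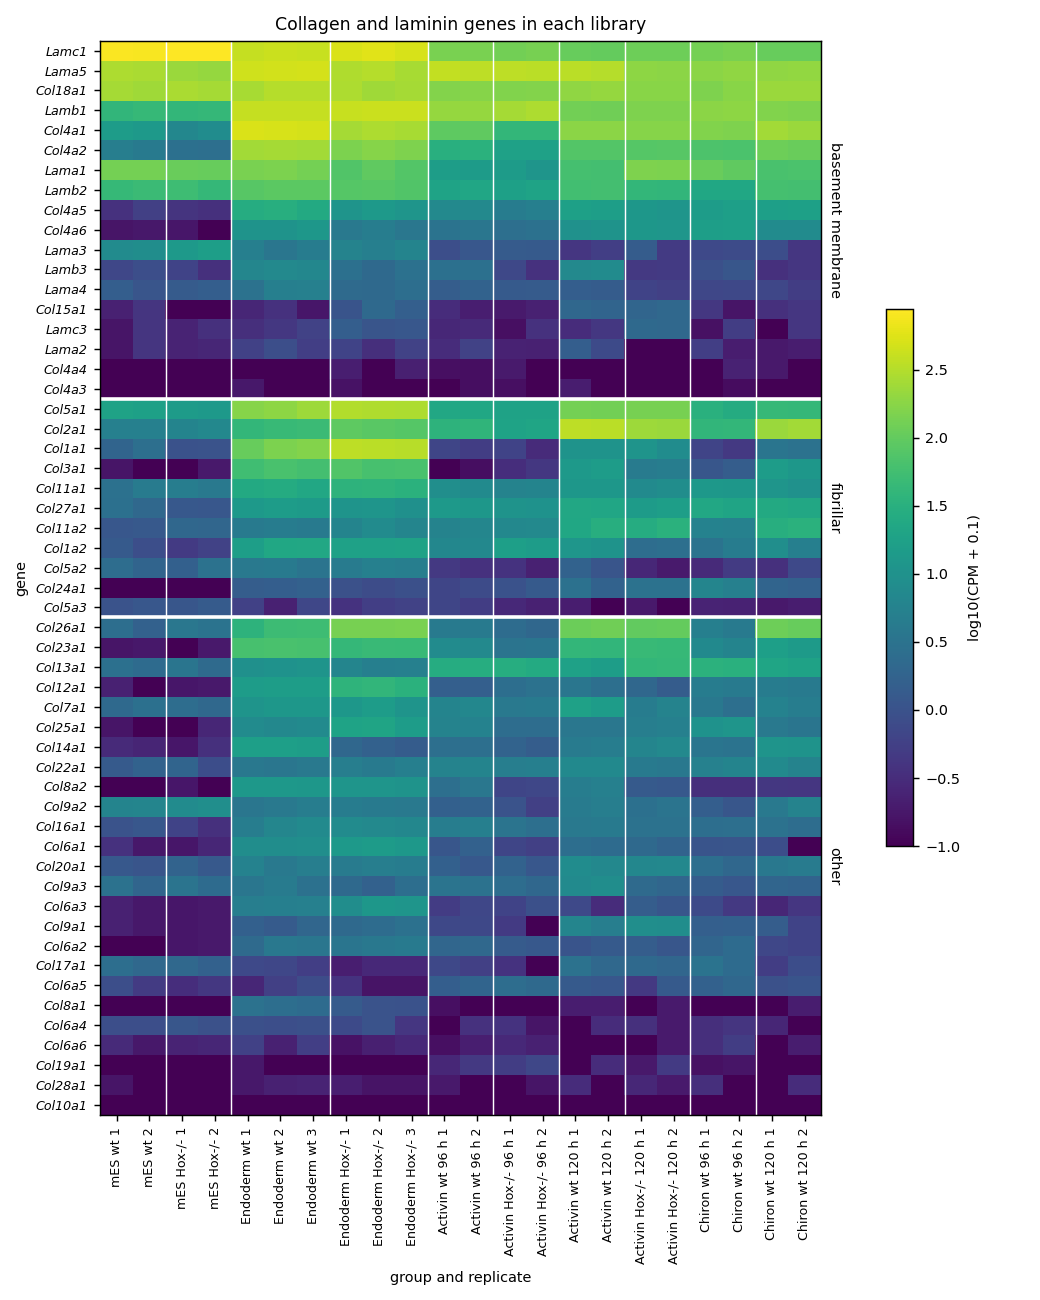
Level of the collagen and laminin genes (rows, by class, 1 member not drawn) in each of the 22 libraries (columns, by group), coloured by log10(CPM + 0.1) and to be read along a row. Most collagen rows are dark in the mES columns and light in the endoderm columns, while Lamc1 is lightest in the mES columns.

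Of the collagen and laminin transcripts, basement membrane genes made up nearly all in stem cells and a smaller part in the cultures. Their summed level was 1641 ± 28.1 CPM (SD, n = 2) in wt mES cells and 2642 ± 55.9 CPM (n = 3) in wt endoderm. In wt Activin A gastruloids it was 1061 ± 1.90 CPM at 96 h and 1179 ± 14.3 CPM at 120 h (n = 2 each). Fibrillar genes summed to 36.5 ± 0.242 CPM in wt mES cells, 508.6 ± 69.5 CPM in wt endoderm, 95.8 ± 0.272 CPM in wt Activin A gastruloids at 96 h and 573 ± 7.78 CPM at 120 h. Levels are comparable between genes only per length. On that scale, the authors' FPKM, basement membrane genes took 95.2% ± 0.178 of the summed member FPKM in wt mES cells and 94.9% ± 0.0279 in Hox-/- ones. Their share was 74.5% ± 1.74 in wt and 59.4% ± 0.765 in Hox-/- endoderm. In Activin A gastruloids at 96 h it was 81.6% ± 0.0218 in wt and 84.6% ± 0.759 in Hox-/-. At 120 h it was 49.5% ± 0.229 in wt and 52.7% ± 0.359 in Hox-/-. The Hox-/- share was thus lower in endoderm and higher in gastruloids. In Chiron gastruloids it was 80.0% ± 0.997 at 96 h and 58.7% ± 0.457 at 120 h.

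**Figure D2:**
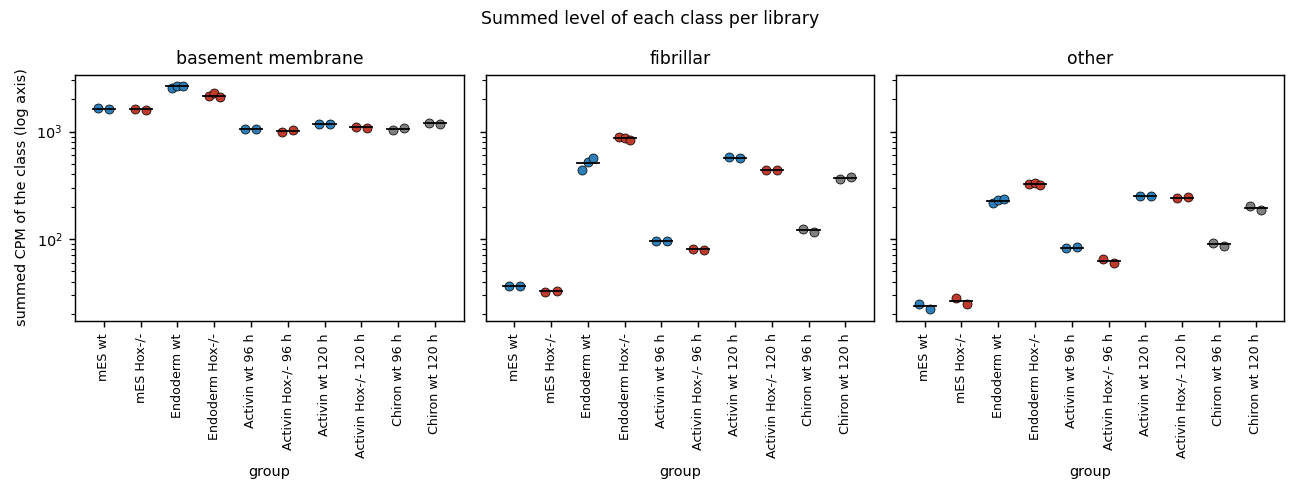
Summed CPM of the basement membrane, fibrillar and other members in every library (points) with group means (horizontal lines), on a log axis. The fibrillar sums of wt Activin A gastruloids lie near 95.8 CPM at 96 h and near 573 CPM at 120 h, while the basement membrane sums of the same groups lie near 1061 and 1179 CPM.

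Different genes led in different cultures. Lamc1, the gamma chain shared by most laminins, took 46.3% of the summed member FPKM in wt mES cells and 49.1% in Hox-/- ones. In wt endoderm Col4a1 (14.4% ± 1.09) and the beta chain gene Lamb1 (13.7% ± 0.688) had the highest shares and did not differ beyond their spread (SD, n = 3). The same held in Hox-/- endoderm for Lamb1 (13.8% ± 0.471) and Lamc1 (13.2% ± 0.848). Lamb1 led in Activin A gastruloids at 96 h, with 20.9% in wt and 29.3% in Hox-/-. At 120 h Col2a1, the cartilage and notochord collagen, led with 19.3% in wt and 14.5% in Hox-/-, ahead of Col26a1 with 13.7% and 13.1%. In Chiron gastruloids at 96 h Col18a1, whose product carries endostatin, took 17.1% ± 1.20 and Lamb1 17.0% ± 0.220 (SD, n = 2). At 120 h Col18a1 took 14.8% ± 0.0310, Col26a1 14.5% ± 0.576 and Col2a1 14.4% ± 1.46. These shares lie within each other's spread at either time.

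Chains that assemble with each other did not keep a fixed ratio of FPKM. Lamc1 over Lamb1 was 14.5 ± 1.15 (SD, n = 2) in wt mES cells, 0.771 ± 0.0299 (n = 3) in wt endoderm and between 0.370 and 0.625 in the gastruloid groups. Lama1 over Lama5 was 0.0530 ± 0.000257 in wt Activin A gastruloids at 96 h and 0.729 ± 0.119 in Chiron gastruloids of that time. Col4a1 over Col4a2 moved less, between 1.58 in Hox-/- endoderm and 2.84 in wt mES cells. Col1a1 over Col1a2, whose products form type I collagen in a ratio of more alpha1 than alpha2 chains, was 6.06 ± 0.249 in wt endoderm, 17.2 ± 0.474 in Hox-/- endoderm and 0.850 ± 0.0693 in wt Activin A gastruloids at 120 h.

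The loss of Hox function was examined in 4 comparisons that share no library. Members moved in both directions in each of them, and few moved the same way throughout. Of 27 members tested in all 4 comparisons, 3 were called in each, and Col27a1, a fibrillar collagen of cartilage, was lower in each. Among the 48 members tested at least once, 18 were called with both signs, 6 were called in 3 or more comparisons with the same sign and 5 were called in none. The 6 were Col4a1, Col4a2, Col4a5, Col27a1, Lama5 and Lamb3, and the shared sign was lower in Hox-/- for each. The 5 were Col5a3, Col6a2, Col6a4, Col6a5 and Col20a1, of which Col5a3 was tested in 1 comparison and Col6a4 and Col6a5 in 2. Only members that passed the filter on low counts enter such numbers. The same numbers were not taken over all genes, so they are not shown to be particular to collagens and laminins.

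In mES cells 30 members were tested and 9 called, 2 higher and 7 lower in Hox-/- cells, where 23.2% of all genes tested were called, 12.4% higher and 10.8% lower. Over all genes 3168 were called, and 1477 without wt replicate 1, 1690 without wt replicate 2 and 1099 with DESeq2. Without those wt libraries 6 and 7 members were called. With every library kept, the median log2 fold change of the 30 tested members was 0.04, beside 0.00 over all genes. In endoderm 30 of 45 tested were called, 15 in each direction (background 46.2%, with 23.1% in either). The basement membrane class had 4 higher and 8 lower of 16 tested, with a median log2 of -0.43, and the fibrillar class 5 higher and 2 lower of 10, with a median of 0.42, beside 0.00 for all genes. In Activin A gastruloids at 96 h 23 of 45 were called, 4 higher and 19 lower, where 38.9% of all genes were called, 22.2% higher and 16.7% lower. The median was -0.31 for members and 0.03 for all genes. Of the lower calls, 11 were in the remaining class, out of 19 tested there.

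At 120 h 32 of 45 were called, 15 higher and 17 lower (background 50.4%, 24.9% higher and 25.5% lower). The members' median log2 was -0.11 and that of all genes -0.02. Scaling these libraries by total counts alone put the median of all genes at -0.13 and gave 9 members higher and 19 lower. CPM uses library totals and the fitted folds use TMM scaling, so that folds at 120 h lie above the ratio of the CPM values. Of the 17 members called at both 96 h and 120 h, 8 had the same sign and 9 opposite signs. The 9 were Col1a2, Col3a1, Col4a2, Col5a1, Col9a1, Col12a1, Col14a1, Col23a1 and Col25a1. Sign changes were not counted over all genes, so this split is not shown to be particular to the members. By the test of the difference, the genotype effect changed between the times for 38.9% of all genes.

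**Figure D3:**
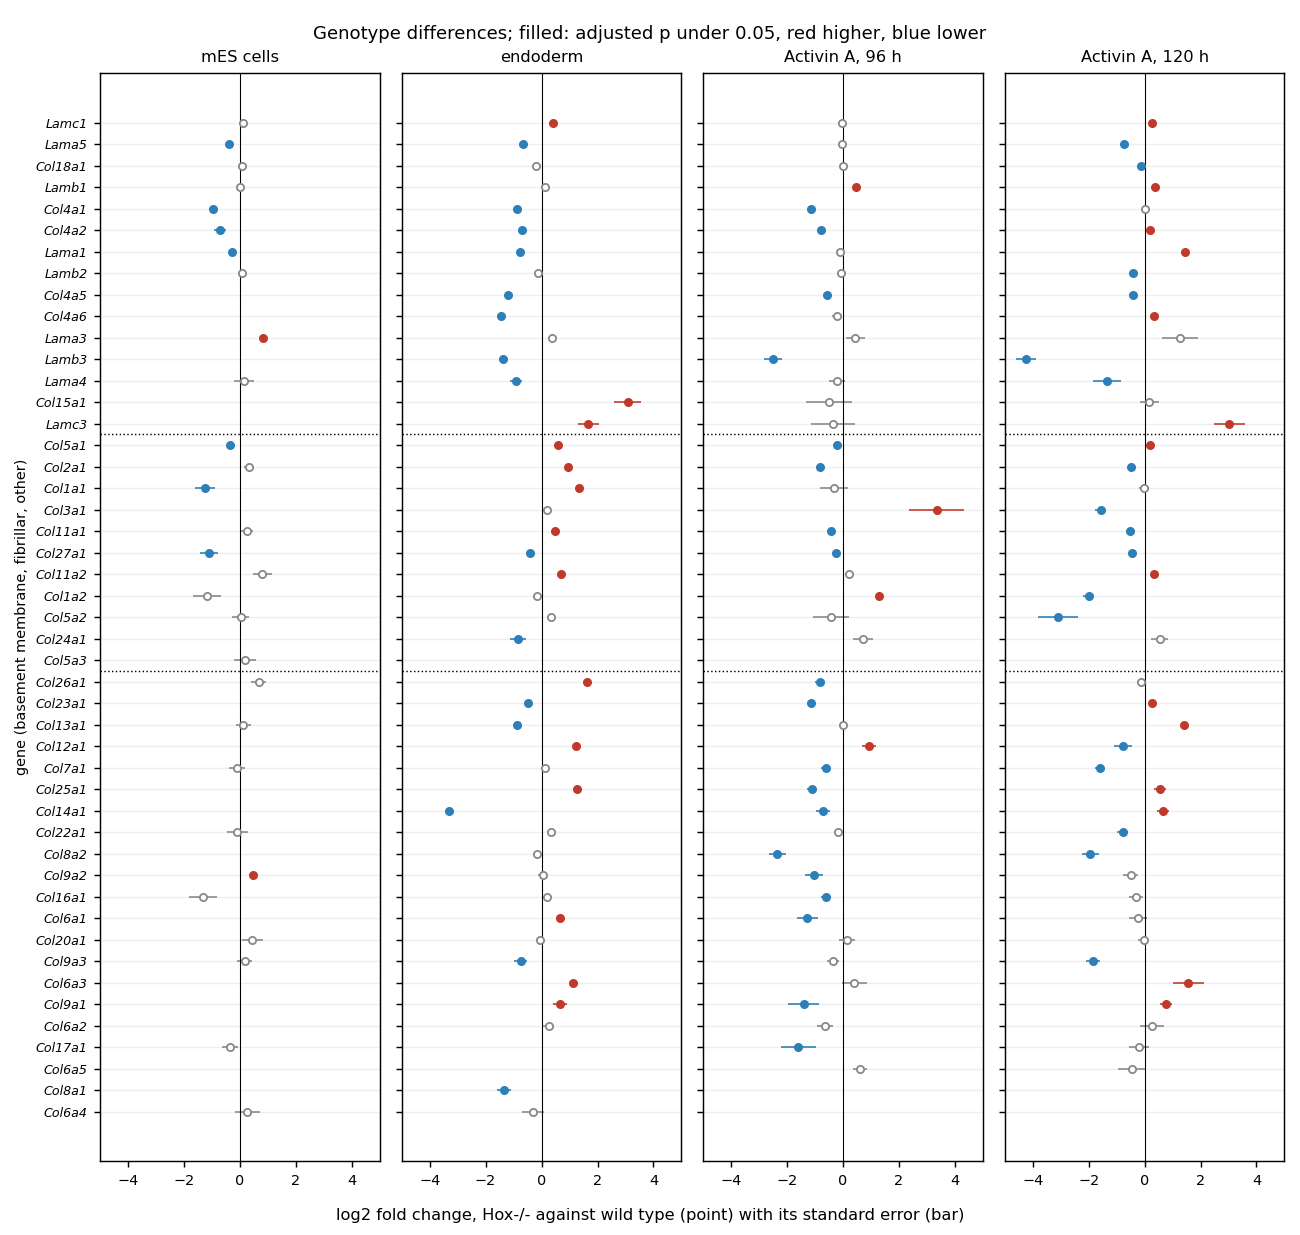
Log2 fold change, Hox-/- over wt, of the tested members (rows, by class, 1 not drawn) in mES cells, endoderm and Activin A gastruloids at 96 h and 120 h (panels), with bars for the standard error and filled points for calls. Col4a1 lies below 0 in the first 3 panels and at 0.03 at 120 h, Lama1 lies at 1.44 at 120 h, and the points of Col3a1 at 96 h and of Lamc3 and Col5a2 at 120 h are fitted against a group at the floor.

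Col4a1 and Col4a2, the genes of the main collagen IV chains, were lower in Hox-/- cells in 3 of the 4 comparisons. Col4a1 held 15.1 and 13.7 CPM in wt and 6.65 and 8.15 CPM in Hox-/- mES cells, a log2 fold change of -0.98 (SE 0.14, adjusted p = 1.31e-06). In endoderm the libraries held 525, 514 and 490.0 CPM in wt and 259, 290.3 and 270.4 CPM in Hox-/-, a log2 change of -0.89 (SE 0.052, adjusted p = 7.43e-09). At 96 h Activin A gastruloids held 93.8 and 97.0 CPM in wt and 41.4 and 40.7 CPM in Hox-/-, or -1.16 (SE 0.050, adjusted p = 1.89e-25). No library of one genotype overlapped the other in these comparisons. At 120 h the values were 179 and 181 CPM in wt and 170.2 CPM in both Hox-/- libraries, and the fitted change was 0.03 (SE 0.045, adjusted p = 0.619). This value took the other sign under 4 of the alternative settings, between -0.01 and -0.08. The difference between the genotype effects at 96 h and 120 h was itself 1.19 on the log2 scale (SE 0.067, adjusted p = 2.49e-20).

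Col4a2, the partner chain, had the same signs up to 96 h. Its CPM values were 4.85 and 4.12 in wt against 2.76 and 2.69 in Hox-/- mES cells, and 249, 257 and 249.8 against 146, 168 and 152 in endoderm. At 96 h they were 31.2 and 33.1 against 17.7 and 17.9, and at 120 h 78.5 and 76.3 against 81.1 and 83.7. The libraries of the genotypes did not overlap in any of the 4, and the order turned at 120 h. The log2 changes were -0.72 in mES cells (adjusted p = 0.017), -0.69 in endoderm (1.45e-07), -0.81 at 96 h (1.28e-13) and 0.20 at 120 h (0.00343). The mES call was lost with DESeq2 and without wt replicate 1 (-0.60). The 120 h call was lost when scaling by total counts (0.09) and without wt replicate 2 (0.18).

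The pair on chromosome X, whose products join in the collagen IV of smooth muscle and some epithelia, was also lower in Hox-/- endoderm. Col4a5 held 27.9, 29.3 and 24.4 CPM in wt and 11.1, 13.3 and 11.2 CPM in Hox-/- endoderm, a log2 change of -1.19 (adjusted p = 2.46e-07). Col4a6 held 10.7, 10.7 and 12.0 CPM in wt and 3.86, 4.61 and 3.59 CPM in Hox-/- endoderm, a change of -1.46 (adjusted p = 6.62e-07). Every Hox-/- endoderm library lay below every wt library for both genes. The pair parted in Activin A gastruloids at 120 h. Col4a5 was at 17.2 and 16.2 CPM in wt and 12.0 and 11.2 CPM in Hox-/-, a log2 change of -0.41 (adjusted p = 0.00626). Col4a6 was at 9.94 and 10.4 CPM in wt and 12.3 and 11.7 CPM in Hox-/-, a change of 0.35 (adjusted p = 0.0442). The FPKM of Col4a5 over that of Col4a6 was 2.16 ± 0.0131 in wt and 1.18 ± 0.122 in Hox-/- gastruloids at 120 h (SD, n = 2). The remaining pair, Col4a3 and Col4a4, which starts 72 bases apart on chromosome 1, reached at most 0.139 CPM in any library.

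**Figure D4:**
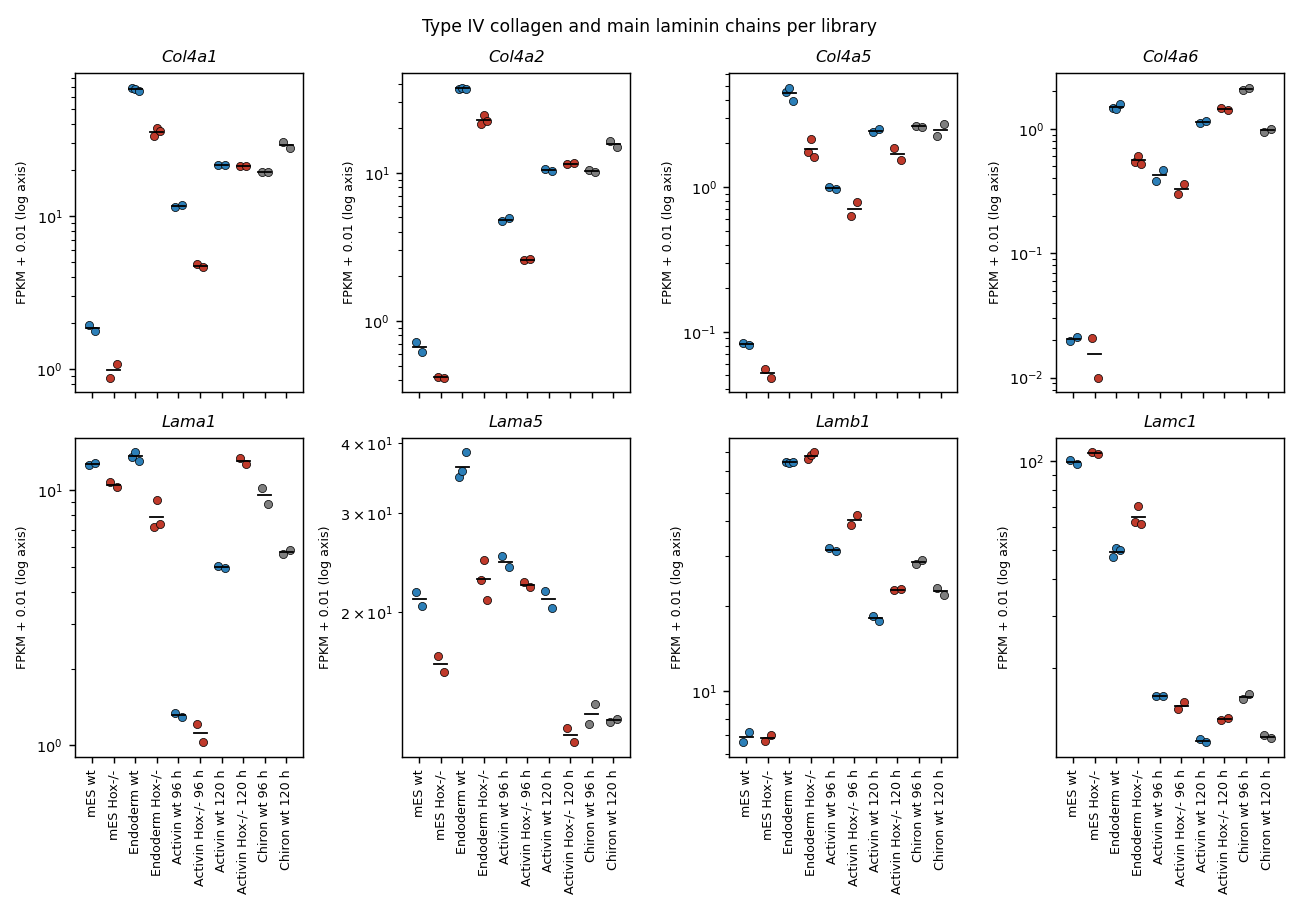
FPKM + 0.01 of 4 collagen IV and 4 laminin genes in every library (points) with group means (lines), on log axes that differ between panels. Mean Lama1 of 120 h Activin A gastruloids lies at 4.99 FPKM in wt and 13.0 FPKM in Hox-/-, and mean Col4a1 of endoderm at 67.5 and 35.8 FPKM.

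The 2 alpha chain genes of the early embryo moved apart in gastruloids at 120 h. Lama1 held 60.5 and 58.8 CPM in wt and 154 and 146 CPM in Hox-/- gastruloids, a log2 change of 1.44 (SE 0.060, adjusted p = 3.26e-26). Lama5 held 341 and 319 CPM in wt and 187 and 179 CPM in Hox-/-, a change of -0.74 (SE 0.045, adjusted p = 1.01e-19). Neither gene's genotypes overlapped. Lama1 over Lama5 in FPKM was 0.237 ± 0.00932 in wt and 1.08 ± 0.00301 in Hox-/- gastruloids (SD, n = 2). At 96 h neither gene passed the test. Lama1 was then at 15.4 and 14.6 CPM in wt and 14.5 and 11.5 CPM in Hox-/- (-0.13, adjusted p = 0.285), and Lama5 at 378 and 362 against 349.9 and 348 CPM (-0.03, adjusted p = 0.567). The genotype effect on Lama1 differed between the times by 1.57 (SE 0.11, adjusted p = 8.68e-17).

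In endoderm and stem cells the 2 alpha chain genes were both lower in Hox-/-. Lama1 in endoderm was at 139.9, 145 and 133 CPM in wt and 74.9, 95.5 and 76.1 CPM in Hox-/-, a log2 change of -0.75 (adjusted p = 1.98e-06). Lama5 was at 458, 470.0 and 497 CPM in wt and 303, 325 and 269.9 CPM in Hox-/-, a change of -0.66 (adjusted p = 1.06e-06). Their FPKM ratio was 0.375 ± 0.0308 in wt and 0.345 ± 0.0285 in Hox-/- (SD, n = 3), values that overlap. In mES cells the changes were smaller, -0.27 for Lama1 (adjusted p = 0.000226) and -0.40 for Lama5 (adjusted p = 4.9e-08). These 2 calls, and that of Col4a1, were lost in the fits of log FPKM.

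Lamb1 and Lamc1, the beta and gamma chains that assemble with them, were higher or not called in each genotype comparison. Lamb1 was at 209 and 206 CPM in wt and 262 and 283 CPM in Hox-/- gastruloids at 96 h, a log2 change of 0.44 (adjusted p = 1.04e-13), and rose by 0.37 at 120 h (adjusted p = 1.14e-08). In endoderm its change was 0.11 and did not pass (adjusted p = 0.0652). Lamc1 was at 393, 419.7 and 412 CPM in wt and 522, 587 and 502 CPM in Hox-/- endoderm, a change of 0.40 (adjusted p = 6.13e-05), and 0.26 at 120 h in gastruloids (adjusted p = 3.09e-05). Lamc1 in mES cells, at 828 and 808 against 880.0 and 870.4 CPM, did not overlap between genotypes, but its change of 0.09 did not pass (adjusted p = 0.0699).

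Other laminin chains moved by larger folds at lower levels. Lamb3, the beta chain of the laminin of skin, held 6.41, 7.12 and 6.64 CPM in wt and 2.73, 2.15 and 2.90 CPM in Hox-/- endoderm (log2 -1.37, adjusted p = 9.71e-06). In Activin A gastruloids it held 2.75 and 2.79 against 0.608 and 0.267 CPM at 96 h, and 7.03 and 8.01 against 0.345 and 0.374 CPM at 120 h. Hox-/- libraries were lower in all 3 comparisons, with log2 changes of -2.50 at 96 h (adjusted p = 6.76e-09) and -4.25 at 120 h (SE 0.36, adjusted p = 2.26e-14). Lamc3 was at the floor in wt gastruloids at 120 h and at 2.16 and 2.06 CPM in the Hox-/- ones, at least 6.44-fold higher. In endoderm Lamc3 was at 0.243, 0.330 and 0.511 CPM in wt and 1.42, 0.984 and 1.07 CPM in Hox-/- (1.66, adjusted p = 0.00226). Lama3, the alpha chain of the same skin laminin, was called in mES cells alone among the genotype comparisons (0.83, adjusted p = 1.2e-05), from 7.97 and 8.63 to 13.4 and 16.2 CPM. Over the laminins, 9 of the 10 tested were called at 120 h, 5 higher and 4 lower, where 50.4% of all genes were called. At 96 h 2 of 10 were called, where 38.9% of all genes were. The difference between these counts was not tested.

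The 2 other collagens of basement membrane zones behaved differently from each other. Col18a1 ranked next to Lamc1 by FPKM in mES cells. It was at 258 and 242 CPM in wt and 276 and 256 CPM in Hox-/-, and its genotypes overlapped in mES cells, endoderm and 96 h gastruloids. Its only call was at 120 h, where 197 and 206 CPM in wt stood against 173 and 172 CPM in Hox-/- (log2 -0.11, adjusted p = 0.0362), and DESeq2 did not make that call. Col15a1 was near the floor in wt endoderm, at 0.162, 0.264 and 0.0729 CPM, and at 0.966, 2.09 and 1.45 CPM in the Hox-/- libraries (3.08, SE 0.49, adjusted p = 0.000142).

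Fibrillar genes were more often higher in Hox-/- endoderm, with 5 higher and 2 lower of 10 tested. They were more often lower in Hox-/- gastruloids, with 4 of 10 lower at 96 h (and 2 higher) and 6 of 10 at 120 h (again 2 higher). Of all genes, 23.1% were higher and 23.1% lower in endoderm. At 96 h 22.2% were higher and 16.7% lower, and at 120 h 24.9% and 25.5%. Col1a1, the main chain of type I collagen, held 106, 145 and 164 CPM in wt and 351, 346 and 337 CPM in Hox-/- endoderm, a log2 change of 1.32 (SE 0.11, adjusted p = 2.17e-07). Every Hox-/- endoderm library exceeded the highest wt library by more than 2-fold. Col1a2, the other chain of that collagen, held 16.1, 21.9 and 23.5 CPM in wt and 18.2, 17.9 and 18.3 CPM in Hox-/- endoderm, so that the groups overlapped (-0.17, adjusted p = 0.239). In mES cells Col1a1 was at 1.79 and 2.64 CPM in wt and 0.896 and 0.924 CPM in Hox-/- (-1.26, adjusted p = 0.00848), a call lost with DESeq2 and without wt replicate 2 (-0.98).

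Col1a2 reversed between the 2 times of the Activin A gastruloids. At 96 h it held 6.71 and 6.94 CPM in wt and 16.8 and 14.8 CPM in Hox-/-, a log2 change of 1.28 (SE 0.11, adjusted p = 5.15e-14). At 120 h it held 11.7 and 10.5 CPM in wt and 2.50 and 2.62 CPM in Hox-/-, a change of -2.005 (SE 0.20, adjusted p = 3.18e-12). The genotypes did not overlap at either time, and the difference between the effects was -3.28 (SE 0.23, adjusted p = 3.52e-17). Col1a1 did not show this: its libraries overlapped at both times, with changes of -0.31 at 96 h (adjusted p = 0.657) and -0.03 at 120 h (adjusted p = 0.908). Both of those values turned positive when the second Hox-/- library of the time was left out, to 0.10 and 0.17.

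Col3a1, the type III collagen of soft connective tissue, was near its floor in 96 h gastruloids. It held 0 and 0.0388 CPM in wt and 0.234 and 0.334 CPM in Hox-/-, at least 2.28-fold higher, a call lost with DESeq2 and without wt replicate 1. At 120 h it held 13.5 and 14.8 CPM in wt and 4.22 and 4.58 CPM in Hox-/-, a log2 change of -1.57 (SE 0.18, adjusted p = 2.61e-10). In endoderm it reached 54.3, 64.8 and 58.9 CPM in wt and 74.4, 61.5 and 64.2 CPM in Hox-/-, which overlapped (0.18, adjusted p = 0.0825). A same-strand gene, Gm47302, overlaps its exons, and reads could be split between them. Its neighbour Col5a2, 24615 bases away on chromosome 1, was at 1.62 and 0.988 CPM in wt gastruloids at 120 h and at the floor in Hox-/- ones, at least 4.84-fold lower.

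Col2a1 and Col5a1 showed how the sign depended on the culture. Col2a1 in endoderm was at 40.6, 45.7 and 47.9 CPM in wt and 91.1, 84.9 and 80.0 CPM in Hox-/- (log2 0.94, adjusted p = 9.24e-08). In gastruloids it was at 36.0 and 38.5 against 19.5 and 21.1 CPM at 96 h (-0.83, adjusted p = 6.98e-15), and 350.3 and 339 against 230.1 and 228 CPM at 120 h (-0.48, adjusted p = 4.54e-14). Col5a1, which takes part in starting fibres and has exons overlapped by 2810430I11Rik and Gm13372, was called in all 4 comparisons, at -0.37 in mES cells, 0.59 in endoderm, -0.23 at 96 h and 0.21 at 120 h. Col27a1 was lower in all 4, at -1.11, -0.41, -0.25 and -0.43. Its mES values of 2.72 and 2.02 CPM in wt and 1.12 and 1.09 CPM in Hox-/- gave a call that was lost with DESeq2 and without wt replicate 1 (-0.86).

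**Figure D5:**
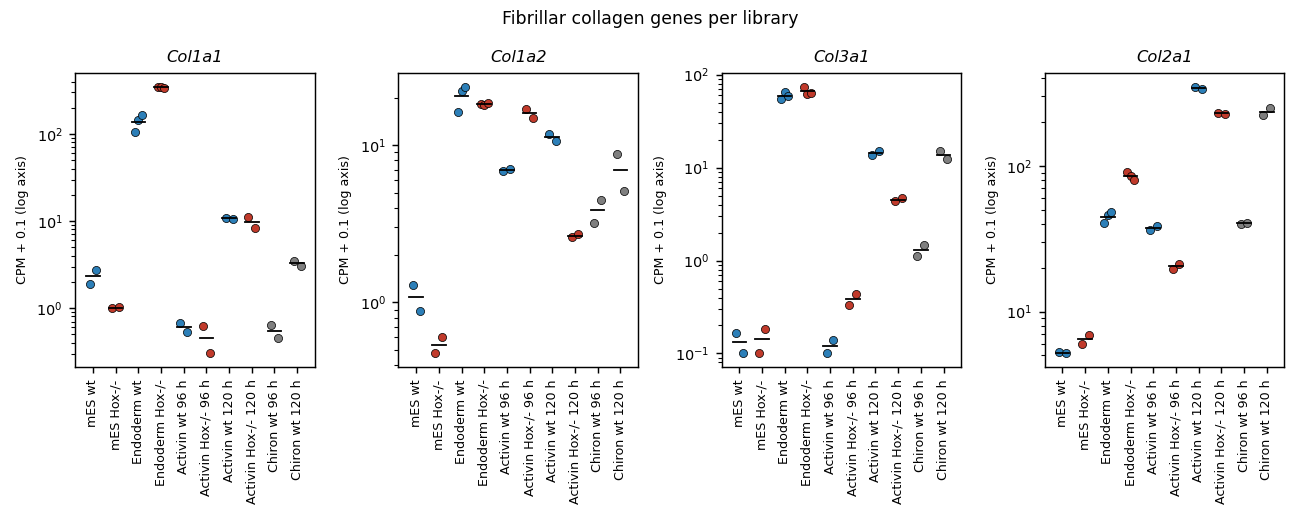
CPM + 0.1 of 4 fibrillar collagen genes in every library (points) with group means (lines), on log axes that differ between panels. Col1a2 of Activin A gastruloids is higher in Hox-/- at 96 h (16.8 and 14.8 against 6.71 and 6.94 CPM) and lower at 120 h (2.50 and 2.62 against 11.7 and 10.5 CPM).

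Among the remaining collagens, Col14a1, a collagen found on the surface of fibrils, had the largest drop in Hox-/- endoderm of the members called there. It held 16.6, 17.0 and 15.6 CPM in wt and 1.99, 1.60 and 1.32 CPM in Hox-/-, a log2 change of -3.30 (SE 0.14, adjusted p = 3.1e-10). Col12a1, a relative of Col14a1 that also binds fibrils, went the other way, from 15.01, 15.8 and 15.5 CPM to 37.0, 38.8 and 32.9 CPM (1.24, adjusted p = 2.61e-08). Col26a1 rose from 35.9, 49.7 and 51.6 CPM to 139, 136 and 142 CPM (1.61, adjusted p = 7.89e-09). Groups of libraries were separate for each of these 3 genes.

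In gastruloids at 96 h Col8a2, a short chain network collagen, held 2.62 and 3.53 CPM in wt and 0.561 and 0.602 CPM in Hox-/- (-2.35, adjusted p = 5.12e-09). Col23a1, a transmembrane collagen, held 7.998 and 7.09 against 3.23 and 3.34 CPM (-1.14, adjusted p = 5.84e-09). At 120 h the transmembrane collagen gene Col13a1 held 17.9 and 15.6 CPM in wt and 41.4 and 41.6 CPM in Hox-/- (1.42, SE 0.094, adjusted p = 4.27e-18). Col7a1, the anchoring fibril collagen under skin, held 17.9 and 15.04 against 4.48 and 5.61 CPM (-1.60, adjusted p = 7.46e-12), and its exons overlap those of Mir711. All 4 genes were separate between genotypes at the time given.

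Chains of collagens VI and IX are each encoded by several members. Of the type VI chains, which form beaded filaments around cells, Col6a1 held 8.36, 8.44 and 8.75 CPM in wt and 13.4, 14.5 and 12.4 CPM in Hox-/- endoderm (log2 0.66, adjusted p = 0.000106). Col6a3 held 4.70, 4.88 and 5.03 against 8.58, 12.3 and 11.3 CPM (1.14, adjusted p = 2.54e-05). Col6a2 held 2.19, 3.69 and 3.43 against 3.35, 3.75 and 4.09 CPM, which overlapped (0.26, adjusted p = 0.333). At 96 h Col6a1 was lower in Hox-/- gastruloids (-1.27, adjusted p = 0.00503), at 1.02 and 1.59 against 0.561 and 0.468 CPM.

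Type IX collagen decorates the fibres of cartilage. Its chain gene Col9a1 held 6.16 and 4.72 CPM in wt and 8.71 and 8.42 CPM in Hox-/- gastruloids at 120 h (0.76, adjusted p = 0.00192). Col9a3 held 7.57 and 8.45 against 2.24 and 1.87 CPM there (-1.84, adjusted p = 4.45e-09), and Col9a2 held 4.32 and 4.72 against 2.76 and 3.18 CPM without passing the test (-0.50, adjusted p = 0.105). The called chains Col9a1 and Col9a3 thus had opposite signs in the same libraries. The exons of Col9a3 overlap those of the antisense gene Tcfl5. Without a stated strand setting its counts may include reads of that gene. Col11a1, which builds mixed fibres with Col2a1, was lower at both times (-0.43, adjusted p = 0.00747, and -0.51, adjusted p = 0.00456) and higher in endoderm (0.49, adjusted p = 9.94e-05).

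Genes that work with the collagens and laminins were counted in 5 lists, to be read beside the share of all genes called in the same comparison. That share was 46.2% in endoderm. Interstitial matrix partners in endoderm had 9 of 12 tested genes higher and 0 lower in Hox-/-, among them Thbs1 (log2 1.67, adjusted p = 1.39e-09), a matricellular protein, and Vcan (0.94, adjusted p = 2.71e-07), a large proteoglycan. Proteases and their inhibitors had 8 higher and 4 lower of 13 there, including Mmp14 (0.70) and Adamts9 (-0.75). Basement membrane partners in endoderm had 5 higher and 7 lower of 17, with the laminin binder Nid2 at -0.84 and Fras1 at 0.96. Enzymes that modify or crosslink collagen had 5 higher and 8 lower of 25, with Loxl2, a lysyl oxidase, at 1.60 and Bmp1, which trims procollagen, at 1.09. Receptors had 4 higher and 2 lower of 15. The counts of the enzyme and receptor lists lie near or below the share of all genes.

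In gastruloids, 38.9% of all genes were called at 96 h and 50.4% at 120 h. At 120 h the receptor list had 1 higher and 7 lower of 14. The collagen receptor chain Itga1 was at 2.32, and the laminin receptors Itga6 and Bcam at -2.11 and -2.34. At 96 h Itga6 was higher in Hox-/- (1.09, adjusted p = 2.16e-24). Basement membrane partners had 7 higher and 6 lower of 16 at 120 h, with Nid2 at 1.23 and Frem1 at -1.94, and 4 higher and 8 lower of 16 at 96 h, with Frem1 at -1.73 and Smoc1 at -1.12. Interstitial partners had 4 higher and 6 lower of 13 at 120 h, where fibronectin, Fn1, rose by 1.34 (adjusted p = 1.61e-31), and 3 higher and 3 lower of 13 at 96 h. Enzymes had 6 higher and 5 lower of 25 at 120 h, with P3h2, which hydroxylates prolines of collagen IV, at -2.21 (adjusted p = 1e-22). Proteases and inhibitors had 2 higher and 8 lower of 14 at 120 h and 2 higher and 5 lower of 14 at 96 h, with Adamts9 at -2.66.

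In mES cells, where 23.2% of all genes were called, 6 of 14 basement membrane partners were higher and 1 lower, among them Hspg2 (0.42) and Nid1 (0.37). Enzymes had 5 higher and 3 lower of 19, receptors 4 and 2 of 12, interstitial partners 1 and 0 of 3, and proteases and inhibitors 1 and 1 of 10. Fn1 rose by 0.60 (adjusted p = 1.25e-15), and the crosslinking enzyme Loxl2 by 2.02 (adjusted p = 1.31e-05). Mmp14, a membrane protease that cleaves collagen, fell by 1.21 on the log2 scale (adjusted p = 4.24e-07).

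Markers of cell types also differed between the genotypes, to be read beside the share of all genes called, 46.2% in endoderm. In endoderm, 8 of 10 parietal and primitive endoderm markers were lower and 1 higher in Hox-/-, with sums of 303.4 to 341.4 CPM in wt and 168.2 to 189.3 CPM in Hox-/- libraries and no marker at the floor. All 11 definitive endoderm markers were lower there, with sums of 1015 to 1040 and 598.6 to 649.5 CPM. All 8 pluripotency markers were lower too, with sums of 829.5 to 972.1 and 244.1 to 263.1 CPM. The mesenchyme and fibroblast list went both ways, with 3 of 8 higher and 4 lower and a median log2 of -0.20, with sums of 166.6 to 173.8 CPM in wt, where S100a4 was at the floor, and 177.0 to 190.2 CPM in Hox-/-. Notochord markers had 3 of 4 higher and 1 lower, and neural tube markers 2 of 3 higher and 0 lower. Presomitic and somitic markers had 4 of 6 lower and 1 higher. Sclerotome and cartilage markers had 3 of 5 lower and 0 higher, and endothelium markers 2 of 5 lower and 0 higher. The part of these cell types in the collagen and laminin results was not tested.

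In Activin A gastruloids at 96 h, 10 of 11 definitive endoderm markers were lower in Hox-/-, with sums of 1008 to 1132 CPM in wt and 329.0 to 334.7 CPM in Hox-/-. Parietal and primitive endoderm markers had 5 of 9 lower and none higher, with sums of 80.7 to 84.2 and 21.7 to 21.8 CPM and Thbd at the floor in both. At 120 h all 11 definitive endoderm markers were lower, with sums of 954.9 to 965.2 and 94.2 to 94.7 CPM. Parietal and primitive endoderm markers then had 4 lower and 1 higher of 9, with sums of 175.0 to 175.9 and 113.9 to 115.6 CPM, and Srgn at the floor in both. All 5 notochord markers were lower at 120 h, with sums of 396.4 to 407.1 and 170.7 to 177.7 CPM and Noto at the floor in Hox-/-. Presomitic and somitic mesoderm markers had 8 of 9 higher, with sums of 592.4 to 600.5 and 1063 to 1066 CPM. Sclerotome and cartilage markers had 3 of 5 lower and none higher, with sums of 44.4 to 46.4 and 27.8 to 28.0 CPM, and Acan and Nkx3-2 at the floor in both genotypes. Neural tube markers had 5 of 6 lower and 1 higher, with sums of 123.3 to 128.0 and 66.5 to 68.6 CPM and Olig2 at the floor in Hox-/-. Endothelium markers had 4 of 7 higher and none lower, with sums of 32.5 to 39.6 and 57.8 to 58.1 CPM and Emcn at the floor in Hox-/-. Kdr gave most of these sums, with means of 27.8 CPM in wt and 45.4 CPM in Hox-/-. Mean Sox18 was 1.47 CPM in both genotypes, and Pecam1 1.14 and 0.449 CPM. Pluripotency markers had 6 of 8 lower and 1 higher, with sums of 123.9 to 125.1 and 36.5 to 38.6 CPM and Zfp42 at the floor in Hox-/-. The same list had 6 lower and 1 higher at 96 h, with sums of 1075 to 1102 and 939.5 to 956.9 CPM. Notochord markers had 4 of 5 lower and 1 higher at 96 h, with Shh at the floor in Hox-/-. Their sums, 1780 to 1845 CPM in wt and 2118 to 2153 CPM in Hox-/-, were nearly all T. Mean T was 1730 CPM in wt and 2129 CPM in Hox-/-. Mean Chrd was 58.7 and 5.25 CPM, Noto 18.4 and 0.772, Nog 2.71 and 0.505, and Shh 2.40 and 0.0568. Mesenchyme and fibroblast markers had 2 of 8 higher and 2 lower at either time. At 96 h presomitic and somitic markers had 4 of 9 lower and 1 higher, and neural tube markers 1 of 6 lower and 2 higher. Endothelium markers then had 2 of 7 lower and 0 higher, and sclerotome and cartilage markers 1 of 5 lower and 0 higher. Of all genes, 38.9% were called at 96 h and 50.4% at 120 h. The part of these cell types in the results of either time was not tested.

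Activin A and Chiron gastruloids of wt cells were compared at each time, with values given as Activin A over Chiron. At 96 h the Col4a1, Col4a2, Col4a5, Col4a6 and Lama1 genes were lower and Lama5 and Lamb3 higher with Activin A. In all, 27 of 45 members tested were called, 9 higher and 18 lower, a share close to the 61.6% of all genes (31.3% higher and 30.2% lower). Lama1 held 15.4 and 14.6 CPM with Activin A and 112 and 95.9 CPM with Chiron, a log2 change of -2.85 (SE 0.077, adjusted p = 1.07e-19). Col4a6 held 3.11 and 3.49 against 16.1 and 16.5 CPM (-2.36, adjusted p = 3.01e-14). Col4a2 held 31.2 and 33.1 against 68.5 and 66.0 CPM (-1.12, adjusted p = 1.97e-13). The Activin A libraries lay below the Chiron libraries for each of these genes.

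Lama5 and Lamb3 lay on the other side at 96 h. Lama5 held 378 and 362 CPM with Activin A and 181 and 196 CPM with Chiron (0.91, adjusted p = 9.36e-14), and Lamb3 changed by 1.48 (adjusted p = 1.14e-05). Col8a2 held 2.62 and 3.53 against 0.243 and 0.243 CPM, a change of 3.57 (adjusted p = 1.76e-09), and Col9a3, a cartilage collagen whose exons overlap those of the antisense gene Tcfl5, changed by 1.31 (adjusted p = 2.12e-05). Col3a1 was at the floor with Activin A and at 1.02 and 1.35 CPM with Chiron, at least 9.52-fold lower. Definitive endoderm markers summed to 1008 to 1132 CPM with Activin A and 113.3 to 130.9 CPM with Chiron at 96 h, and presomitic and somitic markers to 127.9 to 136.1 and 743.1 to 923.3 CPM, with Meox2 at the floor with Activin A. Their part in the differences was not tested.

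At 120 h 26 of 45 members were called between the treatments, 18 higher and 8 lower with Activin A (background 41.9%, 20.3% higher and 21.6% lower). Col5a1 held 130.3 and 126 CPM with Activin A and 43.5 and 42.4 CPM with Chiron (log2 1.52, SE 0.076, adjusted p = 7.75e-14). Col23a1 held 40.4 and 39.1 against 16.8 and 14.1 CPM (1.30, adjusted p = 3.05e-09). Lamb3 was at the floor with Chiron and at 7.03 and 8.01 CPM with Activin A, at least 26.4-fold higher. Col14a1 held 4.22 and 4.61 against 11.1 and 10.4 CPM (-1.34, adjusted p = 2.76e-06). The Lama1 difference, -2.85 at 96 h, was -0.20 at 120 h (adjusted p = 0.0479).

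For 25 of 45 members the effect of the treatment was not the same at both times by the test of the difference, with 22 more positive and 3 more negative at 120 h. Of all genes 39.6% differed, 21.7% more positive and 18% more negative. Lama1 differed by 2.65 (SE 0.11, adjusted p = 5.6e-15) and Col5a1 by 1.93 (SE 0.11, adjusted p = 1.13e-12). In Activin A gastruloids of wt cells Lama1 rose from 15.4 and 14.6 to 60.5 and 58.8 CPM, while in Chiron gastruloids it fell from 112 and 95.9 to 65.3 and 67.2 CPM.

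From 96 h to 120 h most collagen genes tested rose in Activin A gastruloids, 28 of 35 in wt and 24 of 35 in Hox-/-, and 15 of 35 rose in Chiron gastruloids. In wt Activin A gastruloids 31 of 45 members were higher at 120 h and 7 lower (background 74.9%, 37.2% higher and 37.8% lower), and all 10 fibrillar genes tested were higher. In Hox-/- Activin A gastruloids 28 were higher and 7 lower (background 72.4%, 34.9% and 37.6%), and in Chiron gastruloids 16 and 12 (61.7%, 28.5% and 33.2%). The members' median log2 change was 0.97, 1.10 and -0.03 in that order, beside 0.00, -0.01 and -0.04 over all genes. Of the 10 laminins tested, 3 were higher and 4 lower in wt Activin A gastruloids, 4 and 4 in Hox-/- ones, and 1 and 4 in Chiron gastruloids. The change of Lamb1 and Lamc1 in wt Activin A gastruloids was -0.79 and -0.49 on the log2 scale.

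Markers of cell types moved over the same interval in wt Activin A gastruloids, where 74.9% of all genes were called. Mesenchyme and fibroblast markers had 7 of 8 higher and 1 lower, with sums of 68.2 to 70.9 CPM at 96 h and 305.3 to 315.3 CPM at 120 h and S100a4 at the floor at both. Presomitic and somitic markers had 7 of 9 higher and 2 lower, with sums of 127.9 to 136.1 and 592.4 to 600.5 CPM. Pluripotency markers had 6 of 8 lower and 1 higher, with sums of 1075 to 1102 and 123.9 to 125.1 CPM. Neural tube markers had 5 of 6 higher and 1 lower, and sclerotome and cartilage markers 4 of 5 higher and 1 lower. Endothelium markers had 3 of 7 higher and 0 lower. Definitive endoderm markers had 4 of 11 higher and 6 lower, parietal and primitive endoderm markers 3 of 9 and 2, and notochord markers 2 of 5 and 2. The part of these cell types in the changes over time was not tested.

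Col26a1 and Col2a1 had the smallest p among the members that rose at least 2-fold, in each comparison of the times. This order is by p and not by the size of the rise. Col26a1 went from 3.999 and 4.11 to 115 and 123 CPM in wt Activin A gastruloids, a log2 change of 4.80 (SE 0.081, adjusted p = 1.9e-43). In Hox-/- gastruloids its change was 5.51 and in Chiron gastruloids 4.54. Col2a1 went from 36.0 and 38.5 to 350.3 and 339 CPM in wt Activin A gastruloids (3.13, SE 0.048, adjusted p = 2.22e-45), with changes of 3.49 in Hox-/- and 2.44 in Chiron gastruloids. Col3a1 rose from the floor to 13.5 and 14.8 CPM in wt Activin A gastruloids, at least 114-fold. Col1a2 fell by 2.66 on the log2 scale in Hox-/- gastruloids (adjusted p = 1.17e-19) and rose by 0.63 in wt ones (adjusted p = 8.18e-05). Col25a1, a transmembrane collagen of neurons, fell from 10.3 and 11.4 to 3.77 and 3.29 CPM in Chiron gastruloids (-1.72, adjusted p = 4.43e-09), where Col4a6 fell from 16.1 and 16.5 to 7.80 and 7.85 CPM (-1.17, adjusted p = 2.13e-08). Lama3 changed by -1.37 in wt Activin A gastruloids (adjusted p = 0.025), a call lost with DESeq2, and Col6a5 by -1.62 in Hox-/- ones (adjusted p = 0.000159).

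The genotype effect differed between 96 h and 120 h for 22 of 45 members, 13 more positive and 9 more negative at 120 h, where 38.9% of all genes differed, 18.7% and 20.2% in those directions. The libraries of the 2 times differ in depth, and with counts thinned to the smallest library 18 members differed.

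Endoderm was also compared with the mES cells it was grown from, which differ in medium and time as well as in cell type. Of 48 members tested, 35 were higher and 6 lower in wt endoderm (background 79.9%, 41.6% higher and 38.3% lower), and 36 and 7 in Hox-/- endoderm (80.6%, 42.7% and 37.9%). The fibrillar class had 10 of 11 higher in either genotype. The members' median log2 change was 2.60 in wt and 3.20 in Hox-/-. Counting each gene against a floor group by its bound leaves 2.60 in wt and gives 2.63 in Hox-/-, beside 0.07 and 0.10 over all genes. Col4a1 rose from 15.1 and 13.7 CPM to 525, 514 and 490.0 CPM in wt (log2 5.02, SE 0.080, adjusted p = 7.99e-21) and by 5.13 in Hox-/-. Col4a2 rose by 5.68 and 5.74, and Lamb1 from 39.8 and 43.1 CPM to 396, 390.2 and 392 CPM in wt, by 3.13 and 3.26.

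Marker lists moved with this change in wt cells, where 79.9% of all genes were called, 41.6% higher and 38.3% lower. All 8 mesenchyme and fibroblast markers tested were higher in endoderm, with sums of 13.7 to 14.7 CPM in mES cells and 166.6 to 173.8 CPM in endoderm. All 10 parietal and primitive endoderm markers were higher, with sums of 4.51 to 5.05 and 303.4 to 341.4 CPM, and all 8 pluripotency markers were lower, with sums of 7355 to 7390 and 829.5 to 972.1 CPM. Prrx1, Twist2, Cubn, Gata6 and Thbd were at the floor in wt mES cells, and S100a4 in both. Most other lists were also mainly higher. Definitive endoderm markers had 10 of 11 higher and 1 lower, notochord markers 4 of 4 higher, and presomitic and somitic markers 6 of 7 higher and 0 lower. Sclerotome and cartilage markers had 4 of 6 higher and 2 lower, endothelium markers 4 of 6 and 2, and neural tube markers 3 of 4 and 1. The part of these cell types in the change was not tested.

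Genes at the floor in stem cells gave lower bounds. Col3a1 was at least 274-fold higher in wt and 280-fold higher in Hox-/- endoderm, and Col23a1 at least 291-fold and 186-fold. Col4a6 was at least 51.5-fold higher in wt and 16.9-fold higher in Hox-/-. Falls were fewer and included laminins. Lamc1 fell by 1.12 on the log2 scale in wt (adjusted p = 2.16e-13) and by 0.79 in Hox-/-. Lama3 fell by 1.09 in wt and by 1.52 in Hox-/-. Col17a1, a hemidesmosome collagen, went from 2.59 and 2.02 CPM to 0.649, 0.594 and 0.438 CPM in wt, and in Hox-/- it was at the floor in endoderm, at least 9.96-fold lower.

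The change from stem cells to endoderm differed between genotypes for 10 of 48 members, 7 more positive and 3 more negative in Hox-/-, where 24.1% of all genes differed, 11.6% and 12.5%. Col1a1 differed by 2.61 (SE 0.56, adjusted p = 0.00193), from a rise of 5.86 in wt to a rise of 8.47 in Hox-/-. Col5a1 rose by 3.33 in wt and 4.32 in Hox-/-, a difference of 0.99 (adjusted p = 0.000344). Lamc1 fell less in Hox-/-, with a difference of 0.33 (adjusted p = 0.00437), and Lama1 fell in Hox-/- (-0.48, adjusted p = 9.41e-06) with a difference of -0.46 (adjusted p = 0.00374). Col14a1 rose by 6.34 in wt and 3.23 in Hox-/-, a difference of -3.11 (SE 0.99, adjusted p = 0.0275). That call was lost without Hox-/- mES replicate 2 (-2.10) and without wt mES replicate 1 (-3.32) or 2 (-2.96).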

How the data were processed

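Poly(A) RNA of 22 mouse samples in 10 groups was sequenced; the labels' protocols name a stranded library kit. The submitters' processing notes name cutadapt 1.16, STAR 2.7.7a, Cufflinks 2.2.1 and the mm10 build. The tables deposited by the authors hold a count per gene and library, whole numbers with no normalization, and a second set, also deposited by the authors, holds FPKM (fragments relative to transcript length and depth). The counting tool and its strand setting are not given in the sources used here, so overlapping genes are uncertain. In the deposited FPKM, Col9a3 is listed at 0 in 7 libraries with over 20 counts. Symbols came from the FPKM tables and exon overlaps and positions from the GENCODE annotation of mm10.

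The test of the counts was edgeR's (4.0.16, R 4.3.3) quasi-likelihood test after filterByExpr and TMM scaling, Benjamini-Hochberg adjusted over all genes, in separate fits of mES cells, endoderm, Activin A gastruloids, wt gastruloids, and mES cells with endoderm, the last from both tables. The wt Activin A libraries enter the genotype, time and treatment comparisons, which are therefore not independent. Log2 fold changes, SEs and adjusted p-values in the text are edgeR's. CPM is a count over the library total. The floor is 3 counts per library; a fold against a group that nowhere exceeds it is given as a lower bound. Floors cover counting error only.

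Values are printed for the major chains in every genotype comparison, and for the calls of at least 2-fold with the smallest p, up to 3 per direction (2 for times and interactions). Matrix partners were up to 2 calls per direction and list. Other members and partners named were chosen after their values were seen. The members and all lists were chosen with earlier results of these data known. The statistics were tested on simulated data. Alternatives were RLE scaling, other filters, DESeq2 1.42.0, limma 3.58.1 on log FPKM, the replicate block, fits of fewer groups and each library left out. Total-count scaling was planned, whereas GC and length offsets and thinned counts were chosen after seeing the data. The values of 1 member, which is included in the counts and sums, are not reported here.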

Additional observations from a re-analysis of the deposited data

Results flagged for a closer look

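These results are listed because a test of the difference between effects passed. In Activin A gastruloids, genotype effects differed between 96 h and 120 h for 38.9% of all genes. They did so for 22 of the 45 members tested. Among them, the log2 difference (120 h minus 96 h) was -3.28 for Col1a2, 1.19 for Col4a1 and 1.57 for Lama1. For Col3a1 the fitted difference was -4.93, but its wt libraries of 96 h are at the floor, so that the size of this value depends on the prior count.

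The difference between Activin A and Chiron gastruloids changed between the times for 39.6% of all genes. It changed for 25 of 45 members, by 1.93 for Col5a1 and 2.65 for Lama1. The change from mES cells to endoderm differed between genotypes for 10 of 48 members, by -3.11 for Col14a1 and 2.61 for Col1a1. That share of members, 20.8%, lay below the 24.1% of all genes. For Col15a1 the fitted difference was 7.84, with both Hox-/- mES libraries at 0 counts, so that its size too depends on the prior count. No group has enough libraries for a test of single outlying libraries.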

How the results depend on the processing

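With 2 or 3 libraries per group, small changes of low genes are limited by depth, and the floor of 3 counts limits folds of members absent from a group. The number of members called fell in the following alternatives. DESeq2 called 4 in mES cells and 13 at 96 h. The 10-count filter, which tests fewer genes, called 15 for treatment at 120 h, 23 for time in Hox-/- gastruloids and 22 for either change to endoderm. With limma on log2(FPKM + 1) there were 0 calls in mES cells (14 members at an unadjusted p under 0.05), where edgeR called 9, and 15 at 96 h. Over all genes that fit made 52 calls in mES cells, where edgeR made 3168. On log2(FPKM + 0.1) only members with a mean FPKM of at least 1 were tested, 12 in mES cells. There limma made 0 calls (4 unadjusted), and 361 over all genes. Of 18 tested in Activin A gastruloids it called 8 at 96 h, 9 at 120 h and 11 for genotype by time. For time it called all 18 tested in wt and all 18 in Hox-/- Activin A gastruloids. Of 21 tested in wt gastruloids it called 12 and 9 for treatment, 16 for time with Chiron and 11 for treatment by time. The ratio of summed CPM, Hox-/- over wt, moved beyond the spread for the basement membrane class at 120 h (0.931 reported, 1.01 with TMM scaling, 0.998 in FPKM) and at 96 h (0.956 to 0.992 with TMM). For fibrillar genes it moved at 120 h (0.766 to 0.827 and 0.778), at 96 h (0.834 to 0.865 and 0.801) and in mES cells (0.884 to 0.912 in FPKM). For the other class it moved at 120 h (0.958 to 1.04 and 1.01) and in endoderm (1.42 to 1.60 in FPKM). The cause of these shifts was not tested. Signs turned for the following log2 changes. Col18a1 at 96 h (0.01 as reported) took -0.0197 with the 10-count filter, -0.0861 and -0.0833 in FPKM, -0.0362 unfiltered, -0.0250 in the groups compared alone, -0.0403 by total counts and -0.0241 to 0.0522 with 1 library left out. Col4a1 at 120 h took -0.00512 with the 10-count filter, -0.0200 and -0.0193 in FPKM and -0.0816 by total counts. With 1 library left out, Col1a1 ran from -0.27 to 0.17 at 120 h and from -1.22 to 0.10 at 96 h, Lama1 at 96 h from -0.33 to 0.00479 and Lamb1 in mES cells from -0.0645 to 0.0413. The offsets turned Col18a1 over time in wt Activin A gastruloids (-0.21), Col4a1 treatment by time (-0.0273), Lama5 at 96 h (0.0169) and from mES cells to endoderm (-0.0321 in wt, -0.33 in Hox-/-), and Lamc1 at 96 h (0.0212). Correlations of deviations between libraries of the same replicate number ran from -0.355 to 0.27. With 2 libraries in a group the deviations mirror each other, so these values cannot decide whether replicate numbers pair the samples. In endoderm the highest value was 0.475, between wt replicate 3 and Hox-/- replicate 1. With the replicate block, member calls numbered 11 (mES cells), 31 (endoderm), 24 (96 h) and 32 (120 h). In mES cells the block gave 3793 calls over all genes, where the fit without it gave 3168. FPKM of mES cells and endoderm lie in separate tables, so no FPKM fit joined them.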
